A study of Mus musculus with 4 samples.

Results

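NODAL pathway genes were examined for binding by the transcription factor OTX2 on the way from mouse epiblast stem cells (EpiSCs) through a primitive streak (PS) stage to definitive endoderm (DE). The 8 genes were Nodal, Lefty1, Lefty2, Tdgf1, Foxh1, Gdf1, Gdf3 and Skil, out of 21887 protein-coding genes placed on chromosomes of the mm10 assembly. They were chosen by name, with earlier results of these data known. Each region went to the shortest gene whose span contained the region's midpoint. Where no span contained it, the region went to whichever gene end was closest, up to 100 kb. By this rule 15 of the 39615 deposited regions belonged to these genes. OTX2 was located by CUT&RUN, in which an antibody guides a nuclease to a protein on chromatin so that the DNA around it is released and sequenced. The antibody bound an HA tag on OTX2 in edited BL6/129 hybrid lines labelled 7H, 7H1 and 7H2 OTX2-dTAG-EGFP. The 4 libraries are all PS libraries, 3 with anti-HA, 1 from each line, and 1 with control IgG from line 7H2. The labels do not say whether the 3 lines are independent clones. To reach the PS stage, cells spent 16 h with CHIR, which activates WNT signalling, at 3 uM and Activin A at 40 ng/ml. For DE, 24 h more followed with LDN, which blocks BMP receptors, at 100 nM and Activin A at 100 ng/ml. The medium of the EpiSCs held FGF2 at 12.5 ng/ml, NVP at 175 nM and Activin A at 20 ng/ml, and each sample held 500000 cells.

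The deposited values are 4 lists of regions, called here PS only, PS and DE, DE only, and EPI and PS, where EPI is written as in the list name. Every list name begins with "only in". Regions found in EPI, PS and DE together, in EPI alone, or in EPI and DE are in no list. Such regions at these genes would not be seen here. No DE or EPI library is among the 4 libraries, so the data behind those parts of the lists are not seen here. Whether a difference between lists comes from the stage or from the experiment cannot be told apart. A region carries a position only, without a peak height, a score or any value for a single library. Depth is therefore unknown, no spread between libraries can be given, no comparison with IgG was possible, and all counts below are descriptions without a test. The lists held 1634, 6157, 31445 and 379 regions in that order, so a gene was far more likely to hold a DE only region than one of any other list.

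NODAL is a ligand of the TGF-beta family that patterns the epiblast and induces the primitive streak and the endoderm. It acts through activin receptors together with the co-receptor CRIPTO, the product of Tdgf1, and SMAD2 and SMAD3 then enter the nucleus with SMAD4 and bind DNA with partners such as FOXH1. LEFTY1 and LEFTY2 are secreted inhibitors of NODAL whose genes are themselves induced by the pathway, which makes a negative feedback loop. Activin A, the ligand in the culture media, uses the same type I and type II receptors without needing CRIPTO.

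OTX2 regions lay at 7 of the 8 genes, and the ligand gene Nodal and the inhibitor genes Lefty1 and Lefty2 held 11 of the 15. Nodal and Lefty1 held 4 regions each, Lefty2 held 3, Tdgf1, Foxh1, Gdf3 and Skil held 1 each, and Gdf1 held 0. Of all protein-coding genes, 54.7% held at least 1 region of the 4 lists, and 13.3% held 4 or more. The median count was 1 for these 8 genes and also 1 for all protein-coding genes. The genes are small, with a median span of 6.28 kb against 17.2 kb for all protein-coding genes. The stretch of chromosome that the rule gives a gene, its territory, was also short, with a median of 19.7 kb against 45.1 kb. Per 100 kb of territory, the 8 genes held 8.98 regions and all protein-coding genes 1.81. Short territories lie close to gene ends and long ones can reach far from them, so these rates are not a like comparison. No rate was computed for genes with territories of like length. Nodal, Lefty1 and Lefty2, the genes with the highest counts, held 16.7 regions per 100 kb, and the other 5 genes 3.96. This split sets the genes with the highest counts apart, so a difference in rate was built into it.

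**Figure D1:**
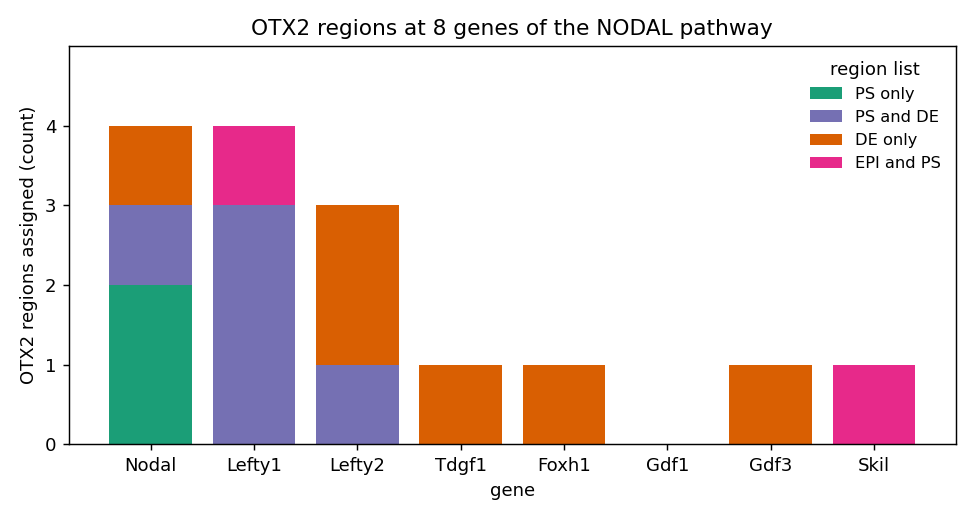
Number of OTX2 regions assigned to each of the 8 genes (vertical axis, count), stacked by region list (colours). Nodal and Lefty1 reach 4 regions and Lefty2 reaches 3, while Tdgf1, Foxh1 and Gdf3 have a single DE only region, Skil a single EPI and PS region and Gdf1 none.

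**Figure D2:**
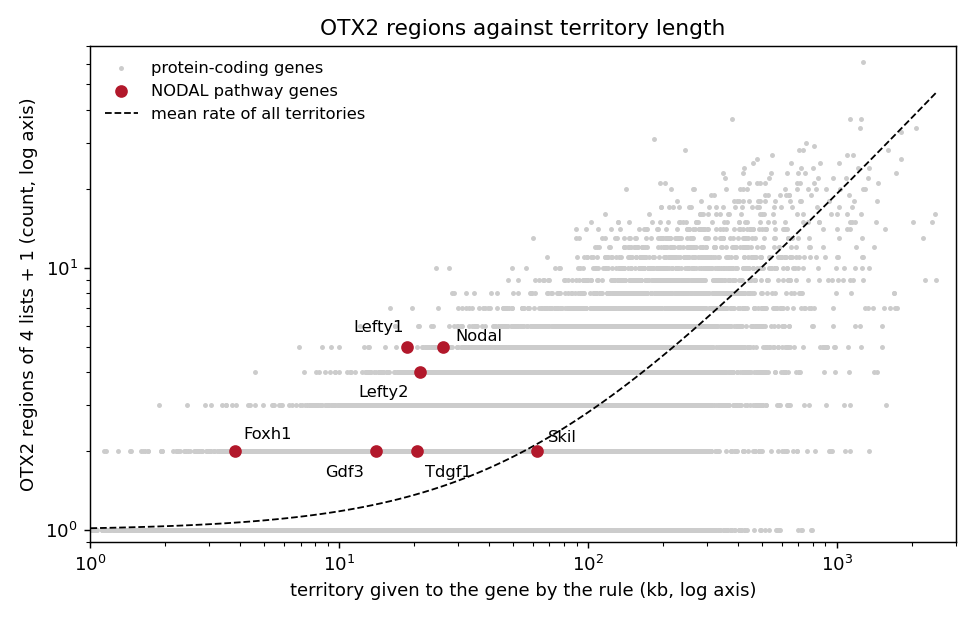
Regions of the 4 lists plus 1 (vertical axis, log scale) against the territory of the gene in kb (horizontal axis, log scale) for protein-coding genes (grey) and the NODAL pathway genes (red), with the mean rate over all territories as a dashed line. Gdf1, whose territory is 0.004 kb, and other genes with very short territories are not drawn. Nodal, Lefty1 and Lefty2 hold 3 or 4 regions in territories of 18.8 to 26.2 kb, above the dashed line, and Skil, with 1 region in 62.5 kb, lies near it.

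The lists differed in which of these genes they touched. PS only regions lay at 1 of the 8 genes, Nodal, against 5.6% of all protein-coding genes with such a region. PS and DE regions lay at 3 of 8, Lefty1, Nodal and Lefty2, against 16.3%. EPI and PS regions lay at 2 of 8, Lefty1 and Skil, against 1.45%. DE only regions lay at 5 of 8, Lefty2, Nodal, Tdgf1, Foxh1 and Gdf3, against 50.1%. The DE only count is thus close to that of protein-coding genes in general, and 3 of the 8, Tdgf1, Foxh1 and Gdf3, held 1 DE only region and nothing else, against 19.2%. Lists that include PS gave a region to 4 of the 8 genes, against 20.1%. Of the 15 regions, 9 came from lists that include PS, a share of 60.0% (95% Wilson interval 35.7 to 80.2), and of all 34616 regions assigned to genes 20.6% did (20.2 to 21.1). These intervals cover counting error only, and regions at 1 gene are not independent.

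Nodal held regions of 3 lists on both sides of its start. The gene lies on chromosome 10 at 61417972 to 61425338 and spans 7.37 kb on the plus strand. A pair of regions lay far upstream, a PS only region at 61409849 to 61410026 and a PS and DE region at 61410297 to 61410413, 271 bp apart and 7.95 kb and 7.56 kb from the gene. A PS only region nearer to the gene lay at 61415977 to 61416187, 1.79 kb upstream. The DE only region lay inside the gene at 61419201 to 61419410, its midpoint 1.33 kb downstream of the start. All 3 regions from lists that include PS were thus upstream of Nodal, and the DE only region was within the transcribed span. Exon and intron could not be told apart, since the gene table holds whole spans. The gene's promoter window lay between the nearer PS only region and the DE only region and touched neither. It is printed to show the sequence that these regions flank, as the 250 bases before the start on chromosome 10, 61417722 to 61417972, plus strand, RefSeq GRCm38.p6, with the first transcribed base in capitals.
Nodal promoter: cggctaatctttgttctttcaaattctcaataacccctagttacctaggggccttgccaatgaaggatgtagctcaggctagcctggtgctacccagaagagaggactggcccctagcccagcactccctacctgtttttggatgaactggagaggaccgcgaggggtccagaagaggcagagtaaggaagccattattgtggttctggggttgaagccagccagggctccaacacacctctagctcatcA

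**Figure D3:**
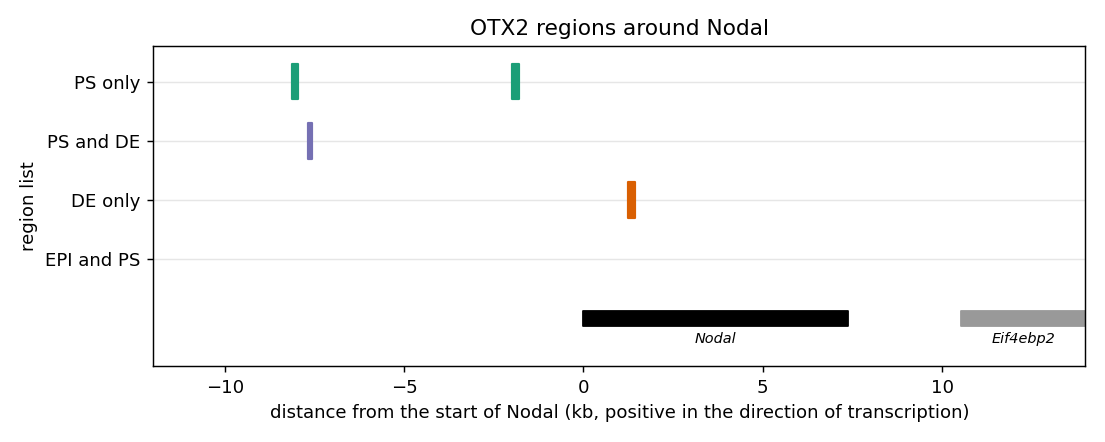
Positions of OTX2 regions (coloured marks, 1 row per list) in kb from the start of Nodal, with gene spans below. Marks carry a thin outline, so narrow regions look slightly wider than scale. The 3 regions from lists that include PS lie upstream, at 7.95, 7.56 and 1.79 kb from the gene. The DE only region lies inside it, and Eif4ebp2 has no region.

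Having 2 PS only regions was uncommon, at 0.763% of protein-coding genes. Regions of PS only, PS and DE, and DE only together were found at 2.27% of genes. Both patterns were read off Nodal itself, so these shares are a description and no test. The PS only region of the upstream pair was wider than 82.4% of its list at 178 bp, and the nearer one wider than 90.9% at 211 bp. The DE only region, at 210 bp, was wider than 85.5% of its list, and the PS and DE region, at 117 bp, wider than 45.8%. Of all PS only regions, 4.77% (95% Wilson interval 3.84 to 5.92) lay within 1000 bp of a PS and DE region, as the upstream pair at Nodal does. The neighbouring genes differed from Nodal: Eif4ebp2, 3.15 kb away, held 0 regions, and Pald1, 34.4 kb away on the other side, held 1 PS only and 1 DE only region. The same counts in the 4 lists as at Nodal, a distance of 0 when each count is divided by its list's mean, were found at 6 other genes. The first 3 by name are Caap1, Dennd2c and Gtf2ird1, with territories of 161, 69.5 and 135 kb against 26.2 kb for Nodal.

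Lefty1 held more regions shared by PS and DE than any other of the 8 genes, and it held no DE only region. It lies on chromosome 1 at 180935022 to 180938401. Its PS and DE regions lay at 180926443 to 180926610, at 180929790 to 180930014 and at 180934815 to 180934896, which are 8.41, 5.01 and 0.126 kb from the gene. Its EPI and PS region, at 180933852 to 180933980, lay between the 2 PS and DE regions closest to the gene, 1.04 kb from the gene and 0.835 kb from the closest of them. All 4 lay on the low-coordinate side, within 8.45 kb of chromosome. Every region assigned to Lefty1 therefore came from a list that includes PS, and 3 of the 4 from the list that also includes DE. At least 3 PS and DE regions were found at 1.87% of protein-coding genes, and at least 3 together with 0 DE only regions at 0.0959%, or 21 genes. A PS and DE region and an EPI and PS region at the same gene were found at 0.576%. The 4 counts of Lefty1 were found at 0 other genes. These patterns were read off Lefty1 itself, so their rarity is a description and no test of whether the gene stands apart. The widths of the PS and DE regions were 168, 225 and 82 bp, so the one closest to the gene was the narrowest, wider than 14.9% of its list.

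A non-coding gene covers the same stretch. The lncRNA gene Gm39715 spans 180920413 to 180937698 on chromosome 1, overlaps Lefty1 and holds the midpoints of all 4 regions. When genes of every kind compete for regions, Lefty1 is left with 0. Over all lists, 12.1% of regions had their midpoint in a gene that is not protein-coding, and of the 15 regions at the NODAL pathway genes 5 did. The assignment of these regions to Lefty1 is by distance, and which gene they act on was not tested.

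Lefty2, the other LEFTY gene, held more DE only than PS and DE regions. It lies on chromosome 1 at 180893108 to 180899107, 35.9 kb from Lefty1. Its PS and DE region lay at 180884069 to 180884262, 8.85 kb from the gene and inside the lncRNA gene Gm39714. A DE only region lay on the same side at 180889354 to 180889481, 3.63 kb from the gene, and another on the other side at 180901271 to 180901339, 2.16 kb away. The last is narrow, at 69 bp wider than 7.78% of its list. The order of the lists at Lefty2 depends on the narrow regions: with regions of at least 150 bp, Lefty2 held 1 region, the PS and DE region. When genes of every kind compete, Lefty2 also held 1 region. The 7 regions of the LEFTY genes were spread over 50.8 kb. The next gene beyond Lefty1, Tmem63a, held 1 PS only region, 7.41 kb from Lefty1, and beyond Lefty2 the gene Sde2 held 2 DE only regions and 1 EPI and PS region.

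**Figure D4:**
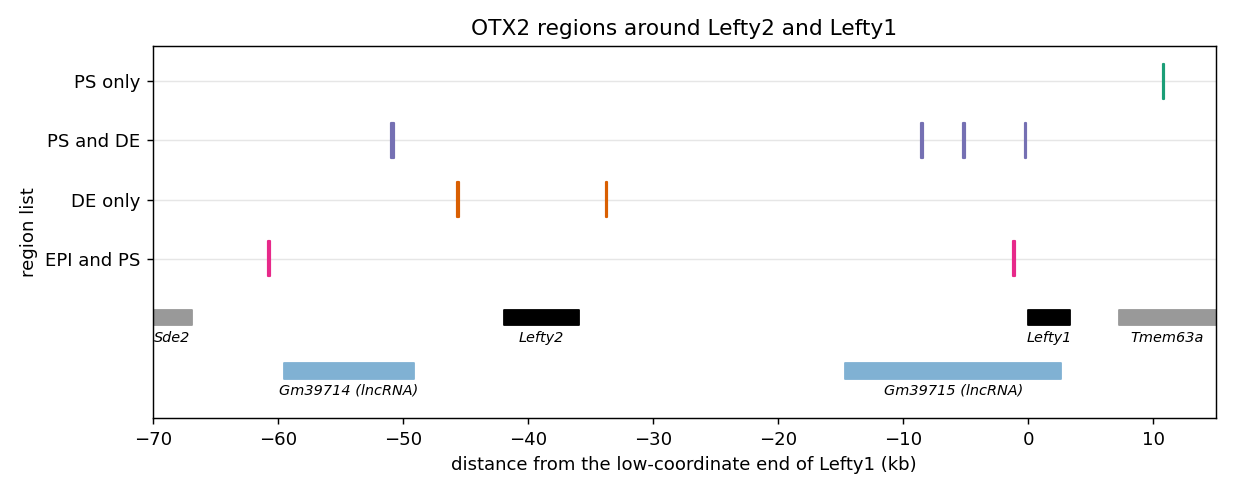
Positions of OTX2 regions (coloured marks, 1 row per list) in kb from the low-coordinate end of Lefty1, with protein-coding genes (black and grey) and lncRNA genes (blue) below. Marks carry a thin outline, so narrow regions look slightly wider than scale. The 3 PS and DE regions and the EPI and PS region of Lefty1 lie within 8.45 kb beside it, inside Gm39715, and the DE only marks lie on both sides of Lefty2. Only regions assigned to the genes drawn are shown.

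Tdgf1, the co-receptor gene, held a single region, from the DE only list. The gene lies on chromosome 9 at 110939608 to 110946158 on the minus strand. The region, at 110944451 to 110944545, lay inside it, with its midpoint 1.66 kb downstream of the start, and was 95 bp wide. This is a position like that of the DE only region in Nodal, 1.33 kb downstream of the start. A PS and DE region lay 3.18 kb from Tdgf1 but nearer to Lrrc2, to which the rule gave it. Within the 4 lists, it is therefore the rule of the nearest gene end that leaves Tdgf1 without a PS region. Its promoter is printed beside that of Nodal for comparison, as the 250 bases before the start on chromosome 9, 110946158 to 110946408, minus strand, RefSeq GRCm38.p6, with the first transcribed base in capitals.
Tdgf1 promoter: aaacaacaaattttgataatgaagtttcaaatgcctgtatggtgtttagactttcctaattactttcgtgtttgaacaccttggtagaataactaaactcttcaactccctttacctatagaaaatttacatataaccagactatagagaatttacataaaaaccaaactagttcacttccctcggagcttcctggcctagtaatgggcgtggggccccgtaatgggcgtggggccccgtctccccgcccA
Promoter windows of 300 bases were at hand for 3 of the 8 genes, Nodal, Tdgf1 and Gdf1, the last with 2 windows. None of the 4 windows overlapped a region of any list, against 10.4% of all 32851 windows for DE only and 1.52% for PS and DE. The windows were searched on both strands for TAATCC, the core that OTX2 recognises, for AATCCACA, a FOXH1 site, and for GTCTAGAC, a SMAD palindrome. TAATCC and AATCCACA share the letters AATCC and can overlap. Each motif was found in 0 of the 4 windows, and over all windows in 7.06%, 0.855% and 0.213%. The absence says only that these letters are not in these windows, and the regions themselves were not searched.

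Foxh1, the forkhead partner of the SMADs, held 1 DE only region at 76670176 to 76670305 on chromosome 15, inside its span of 76667829 to 76671614. Foxh1 sits among 15 other protein-coding genes within 100 kb, and the rule gives it only 3.8 kb. The 100 kb around Foxh1 held 11 regions, 10 of them DE only, and 10 of the 11 were assigned to other genes. The DE only regions nearest to that of Foxh1 were given to Cyhr1, 13.1 kb away, and to Ppp1r16a. Its nearest PS and DE region lay 26.4 kb away, at Gpt.

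The GDF genes encode TGF-beta family ligands that form heterodimers with NODAL. Gdf3 held 1 DE only region at 122609842 to 122610064 on chromosome 6, inside the span of 122605403 to 122610087, with its midpoint 0.134 kb from the high-coordinate end. This region was 223 bp wide, wider than 88.0% of its list. The nearest PS and DE region lay 45.2 kb from Gdf3. Gdf1 had no region, and the rule could hardly give it one. Gdf1 and Cers1 share a start on chromosome 8, at 70315775, and end at 70331592 and 70331588, so the shorter Cers1 takes nearly every position. Cers1 held 0 regions too. The region nearest to Gdf1 in any list, a DE only region, lay 51.9 kb away, and the 100 kb around Gdf1 held 2 regions, both DE only and at Crtc1.

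Skil encodes SnoN, a repressor of SMAD complexes that is itself induced by the pathway. Its single region was of the EPI and PS list, at 31089536 to 31089608 on chromosome 3, 5.45 kb from the gene at 31095058 to 31122923. The region was 73 bp wide, wider than 10.8% of its list. Holding an EPI and PS region and no other, a pattern read off Skil itself, was found at 0.311% of protein-coding genes. DE only regions came no closer to Skil than 26.8 kb, at Cldn11, and PS and DE regions no closer than 283 kb. Skil was the gene with the largest territory here, 62.5 kb, and its rate of 1.60 regions per 100 kb was below the 1.81 of all genes.

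**Figure D5:**
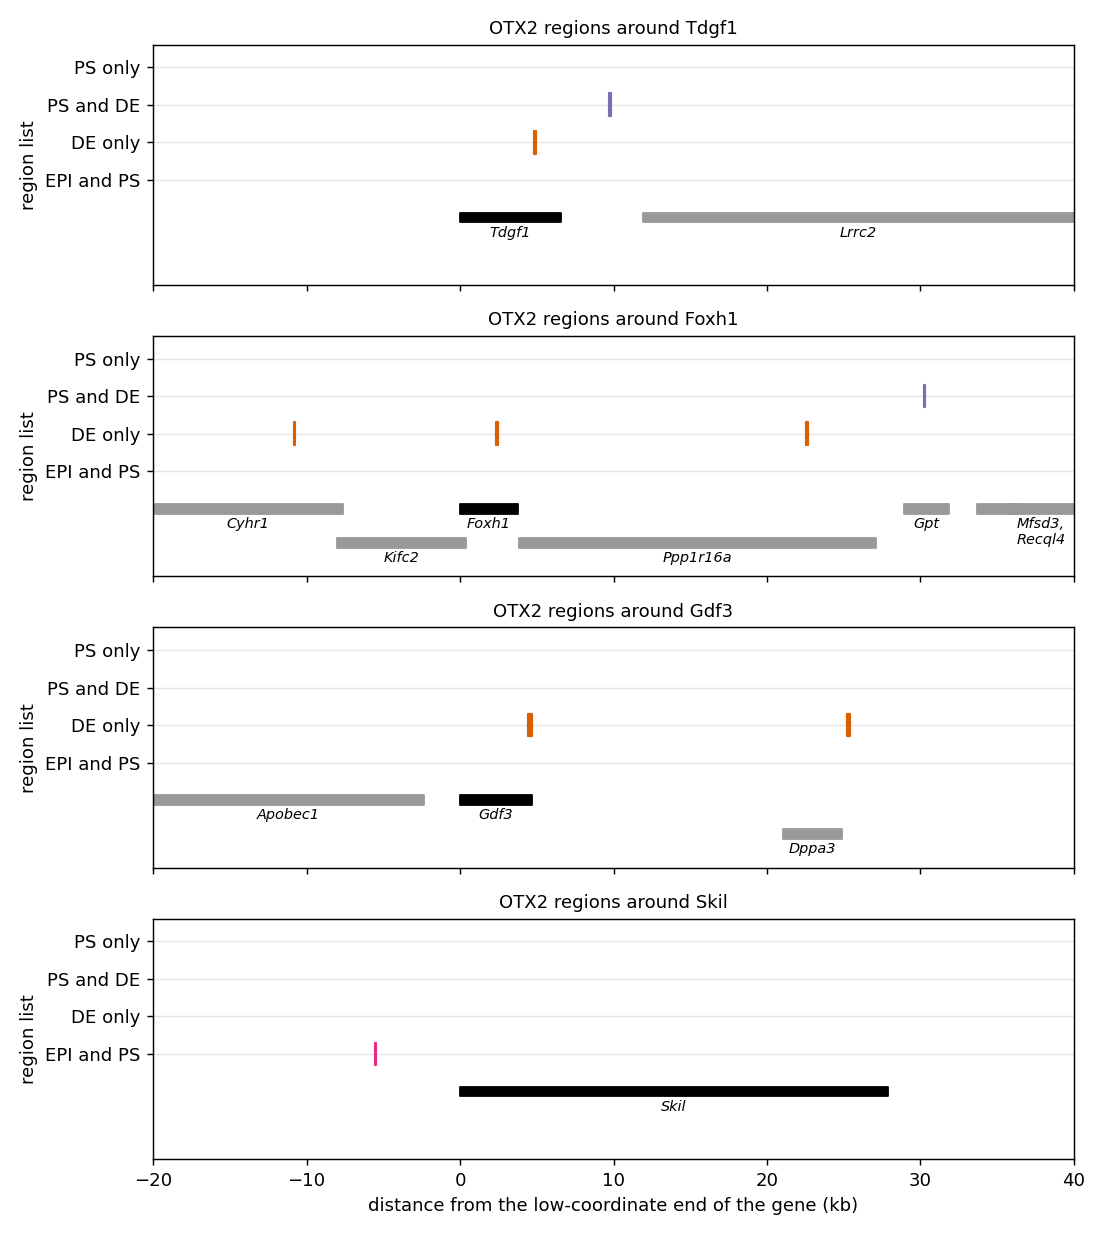
Positions of OTX2 regions (coloured marks, 1 row per list) in kb from the low-coordinate end of Tdgf1, Foxh1, Gdf3 and Skil, with gene spans below (black for the named gene, grey for others). Marks carry a thin outline, so narrow regions look slightly wider than scale. The single DE only regions of Tdgf1, Foxh1 and Gdf3 lie inside the genes and the EPI and PS region of Skil lies 5.45 kb outside.

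Across the 8 genes, position relative to the gene differed between the lists. Of the 9 regions from lists that include PS, 0 had a midpoint inside the gene, at distances of 0.126 to 8.85 kb. Of the 6 DE only regions 4 did, in Nodal, Tdgf1, Foxh1 and Gdf3, and the other 2, at Lefty2, did not. At Foxh1 the territory of 3.8 kb hardly exceeds the span of 3.79 kb, so a region given to it could hardly lie outside. Of all assigned regions in lists that include PS, 52.2% lay inside a protein-coding gene, and of all assigned DE only regions 54.4%. These shares are not a like comparison. Lefty1, Nodal and Lefty2 span 3.38, 7.37 and 6 kb of territories of 18.8, 26.2 and 21.1 kb, so most positions given to them lie outside the gene. With 9 regions, the 95% Wilson interval of the share inside for lists that include PS runs from 0 to 29.9%. With 6, that of the DE only share, 66.7%, runs from 30.0 to 90.3%. Regions at 1 gene are not independent, and 4 of the 9 lie at Lefty1. A DE only region inside the gene was found at 30.8% of all protein-coding genes.

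Distance gives a view that does not depend on which gene a region was assigned to. A PS and DE region lay within 10 kb of 4 of the 8 genes, Lefty1, Tdgf1, Nodal and Lefty2, against 15.5% of protein-coding genes. A PS only region lay within 10 kb of Nodal and Lefty1, 2 of 8 against 4.94%, and an EPI and PS region within 10 kb of Lefty1 and Skil, 2 of 8 against 1.49%. A DE only region lay within 10 kb of 5 of 8, against 54.2%. The median distance to the nearest PS and DE region was 17.6 kb for the 8 genes and 116 kb for all protein-coding genes. Lefty1 and Lefty2 are neighbours, 35.9 kb apart, and no region lay within 10 kb of both. They lie in the same stretch of chromosome, so they may not be independent.

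The other genes of the NODAL and activin pathway were taken from a list by role and not by their regions. Of these 39 genes, 34 (87.2%) held a region, against 54.7% of all protein-coding genes. Their median was 3 regions against 1 for all protein-coding genes, and their rate 4.31 regions per 100 kb against 1.81. Medians and shares of genes with a region were not adjusted for territory length, which differs between genes. PS and DE regions lay at 20 of the 39 (51.3%, against 16.3% of all protein-coding genes) and DE only regions at 31 (79.5%, against 50.1%). PS only regions lay at 7 (17.9%, against 5.6%) and EPI and PS regions at 2 (5.13%, against 1.45%). Among ligands and secreted regulators, 2 of 9 (22.2%) held a PS and DE region, near the 16.3% of all protein-coding genes, at a rate of 1.19 regions of all lists per 100 kb. Cer1, a secreted antagonist of NODAL, held 2 PS and DE regions and 0 of the other lists. Lefty1 also had 0 DE only regions, but held an EPI and PS region beside its 3 PS and DE regions. The ligand gene Bmp4 held 3 DE only regions, Fst, which encodes an activin-binding protein, 2, and the activin subunit gene Inhba 1.

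Among the 3 co-receptor and convertase genes, Cfc1, which encodes the CRIPTO-related co-receptor CRYPTIC, held 5 PS and DE regions and 1 DE only region in a territory of 25.0 kb, where Tdgf1 held 0 and 1 in 20.6 kb. The convertase genes Pcsk6 and Furin, whose products cleave the NODAL precursor, held 6 DE only regions, and 1 PS and DE and 1 DE only region. Of the 6 receptor genes, 1 held PS and DE regions (16.7%, against 16.3% of all protein-coding genes). This was Tgfbr3, with 3 of them, 15 DE only and 1 PS only region. Acvr1b, a type I receptor for NODAL and activin, held 1 PS only region, and Acvr1c 1 and Tgfbr1 2 DE only regions. Among 11 transducers and repressors, 10 held a DE only region (90.9%, against 50.1% of all protein-coding genes) and 5 a PS and DE region (45.5%, against 16.3%). Dact2 held 4 PS and DE and 9 DE only regions, Pmepa1 2 and 9 with 1 PS only region, Trim33 7 DE only and 1 EPI and PS region, and Smad2 1 PS and DE and 6 DE only regions. All 10 target genes held both PS and DE regions (against 16.3% of all protein-coding genes) and DE only regions (against 50.1%), and their rate was 7.75 regions per 100 kb. The largest counts were 20 at Foxa2, 13 at Lhx1, 12 at Gsc and 9 at Eomes, against 4 at Nodal and Lefty1, in territories of 204, 110, 130 and 118 kb. Per 100 kb, Lefty1 with 21.3, Nodal with 15.3 and Lefty2 with 14.2 were above Lhx1, with 11.8, and Foxa2, with 9.8. Rates as high were found elsewhere in the pathway, 26.3 at Foxh1 from 1 region in 3.8 kb, 24.0 at Cfc1 and 14.5 at Dact2. Short territories hold few regions, so the rates of Lefty1, Nodal and Lefty2 rest on 3 or 4 regions each. Such territories also lie close to gene ends, so rates of genes with unlike territories are not a like comparison.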

How the data were processed

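OTX2 CUT&RUN was done in 4 PS libraries, per the labels. The authors deposited 4 region lists with chromosome, start and end, and no value per library. Per the submitters' processing notes, the build was mm10 and the tools were MACS2 2.2.6, bedtools 2.30, Picard 2.26.10, SAMtools 1.14 and Bowtie2 2.3.5.1. For the peak threshold, the use of IgG and the pooling of libraries, the setting is not given in the sources used here. Starts were converted to count from 1, and 2 regions on unplaced scaffolds were assigned to no gene. Genes and promoter windows came from RefSeq GRCm38.p6. Assignment and counts were computed in Python 3.11.15 with pandas 2.3.3 and scipy 1.17.1. The assignment was tested on 2000 simulated positions and gave 0 mismatches against a direct search. Distances run between the nearest edges of region and gene unless a midpoint is named.

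The genes and lists were chosen with earlier results of these data known, so no test is given. All 8 genes are named, as are up to 4 pathway genes per role with the most regions (ties by name), up to 3 genes with like counts and the neighbours within 100 kb that hold regions or adjoin, of which some are not reported here. Of 40 listed pathway symbols, 39 genes were matched, because 1 symbol repeats another gene. Opposite-strand promoter windows that overlap were checked, and 1700 of 1700 were reverse complements. Alternatives changed the assignment distance, the competing genes, the point of a region used, the minimum width and the merging of regions.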

Additional observations from a re-analysis of the deposited data

How the results depend on the processing

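The 4 counts of regions and the 4 counts of genes with a region, 1 per list, were the same with gene ends within 50 kb or 1 Mb, with spans ignored, with any base in place of the midpoint and with regions within 500 bp merged. Under 3 settings some of them moved by more than 1.5 times. With regions of at least 150 bp, DE only fell from 6 regions at 5 genes to 2 regions at 2 genes, PS and DE from 5 regions to 3, and EPI and PS from 2 regions at 2 genes to 0 at 0. When genes of all kinds competed, PS and DE gave 1 region at 1 gene and EPI and PS 1 region at 1 gene, because the lncRNA genes Gm39714 and Gm39715 took the other regions. Lefty1 then held 0 regions and Lefty2 1 in place of 3. With the minimum of 150 bp, Lefty1 held 2 and Lefty2 1. With every region within 100 kb counted, also where another gene is nearer, the counts were 7 regions at 4 genes for PS only, 11 at 6 for PS and DE, 39 at 8 for DE only and 4 at 4 for EPI and PS. Of the 72 further comparisons, for single genes and for the other pathway genes (the latter added after seeing the data), 15 moved by more than 1.5 times, all under these settings. The lists give no score, so width was used in place of a stricter threshold. The narrowest regions were 2 bp in PS and DE and 5 bp in EPI and PS, against 77 bp in PS only and 62 bp in DE only. How the edges of the regions were set is not known here, so width may not follow peak strength. Depth per library is unknown, which leaves sites that were missed at low depth out of sight. No paired analysis was possible because no list holds a value per library, and for the same reason no library could be left out.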

Other observations

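Gdf3 shares its part of chromosome 6 with the germline and pluripotency genes Dppa3 and Nanog, and regions of 3 lists lay there within 100 kb of Gdf3. Dppa3 held 2 DE only regions and 1 PS and DE region, the latter at 122655237 to 122655414. The DE only region at 122663636 to 122664090 was 455 bp wide, wider than 99.6% of its list. A PS only region at 122707395 to 122707570 lay across an end of Nanog, 97.3 kb from Gdf3. Apobec1, on the other side of Gdf3 at 2.38 kb, held 0 regions.

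Within 100 kb of Gdf1 lay 9 other protein-coding genes, and the 2 regions of the 4 lists in that stretch were both assigned to Crtc1. Around Tdgf1, an EPI and PS region lay 48.8 kb away, at Rtp3, and 6 DE only regions lay within 100 kb. Lrrc20, 50.4 kb from Nodal, held 9 regions, 7 DE only and 2 PS and DE, where Eif4ebp2 between them held 0. Windows over promoters that overlapped a PS and DE region held TAATCC in 11.4% of 499 cases, those that overlapped a DE only region in 6.65% of 3430, and all windows in 7.06%.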
